A study of Homo sapiens with 6 samples.

Results

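The checkpoint kinases and the CDC25 phosphatases were described here as 10 genes, chosen by symbol from the deposited expression table: *ATR*, *ATM*, *TOPBP1*, *CHEK1*, *CHEK2*, *WEE1*, *PKMYT1*, *CDC25A*, *CDC25B* and *CDC25C*. The table holds 58735 genes, of which 13621 passed a filter on low values, and all 10 genes were among them.

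The study sequenced mRNA of TPC-1, a human papillary thyroid carcinoma cell line, to ask how the transcriptome differs when *RRM2* is overexpressed. *RRM2* encodes the small subunit of ribonucleotide reductase, the enzyme that makes deoxynucleotides for DNA synthesis. Wild strain TPC-1 was represented by 3 libraries, and so was *RRM2*-OE-TPC-1, the same line infected with a lentivirus (vector LV18) that carries *RRM2* behind a CMV promoter together with a puromycin resistance gene. The methods describe biological triplicates of each cell line. Overexpressing TPC-1 lines made independently of each other are not described. The p-values below therefore measure spread between libraries of a line, not between lines. The wild strain is not an empty-vector control, so *RRM2*, lentiviral infection and drug selection cannot be told apart in any difference given here.

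*RRM2* itself was at 9.17, 9.05 and 8.52 FPKM (fragments scaled to gene length and to a factor for each library) in wild strain TPC-1. It was at 50.4, 47.5 and 47.2 FPKM in *RRM2*-OE-TPC-1. The genotype label of replicates 2 and 3 of the overexpressing cells reads RRM3 and RRM4, whereas their titles give *RRM2*, and *RRM2* was high in all 3. Depth was 14317091 to 17084067 reads on genes per library. Of the thyroid markers, *PAX8* (67.3 to 70.8 against 56.3 to 59.8 FPKM) and *FOXE1* were present in both groups, *NKX2-1* was at 0 and *TG*, *TSHR* and *SLC5A5* reached at most 0.113 FPKM. The summed level of 4 epithelial markers was 41.8 to 45.8 FPKM in wild strain TPC-1, against 87.3 to 89.7 FPKM in *RRM2*-OE-TPC-1, nearly all of it *KRT18*. That of 3 endothelial markers was 0.873 to 1.05 against 0.0667 to 0.115 FPKM, nearly all of it *PECAM1*, and 4 leukocyte markers summed to 0.00685 FPKM at most. The part of these markers in the differences below was not tested.

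ATR and ATM are the large kinases at the top of the DNA damage and replication checkpoints. ATR responds to single-stranded DNA at stalled forks and is switched on by TOPBP1, and ATM responds to double-strand breaks. They act on the effector kinases CHK1 (*CHEK1*) and CHK2 (*CHEK2*), which restrain the CDC25 phosphatases. CDC25 proteins remove the inhibitory phosphates that WEE1 and PKMYT1 place on cyclin-dependent kinases (CDKs), so the balance between these opposing enzymes sets when S phase and mitosis begin. CDC25A acts at both G1/S and G2/M, and CDC25B and CDC25C act mainly on entry into mitosis. Much of this control works through phosphorylation and protein turnover, which RNA levels do not measure.

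The transcription start regions of the 3 phosphatase genes are shown because *CDC25A* stood apart from *CDC25B* and *CDC25C* in the comparison, and those of *TOPBP1*, *CHEK1* and *ATR* because these are the other genes with a window that rose. Each window runs from 250 bases before a RefSeq start to 50 bases from it onwards (RefSeq, GRCh38.p14), 5′ to 3′ on the strand of the gene. Windows were matched by symbol for 8 of the 10 genes (all but *WEE1* and *PKMYT1*), 17 in all. Capitals mark matches, on either strand, to 3 sets of letters: the E2F words TTTCGCGC, TTTGGCGC and TTCCCGCC, the CHR words TTTGAA and TTCGAA, and the CCAAT box CCAAT. E2F factors are known for control of G1/S genes, CHR elements for control of G2/M genes, and CCAAT boxes are the letters that NF-Y reads. Where a gene has several starts, the window with most matches is printed.
CDC25A (chr3:48188368-48188667, minus strand): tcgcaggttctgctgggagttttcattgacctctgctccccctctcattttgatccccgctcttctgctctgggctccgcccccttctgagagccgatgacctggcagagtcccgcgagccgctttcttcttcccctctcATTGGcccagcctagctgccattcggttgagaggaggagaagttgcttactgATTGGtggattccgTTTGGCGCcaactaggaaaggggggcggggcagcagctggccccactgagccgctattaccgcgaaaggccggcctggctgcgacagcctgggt
CDC25B start 3 (chr20:3796060-3796359, plus strand): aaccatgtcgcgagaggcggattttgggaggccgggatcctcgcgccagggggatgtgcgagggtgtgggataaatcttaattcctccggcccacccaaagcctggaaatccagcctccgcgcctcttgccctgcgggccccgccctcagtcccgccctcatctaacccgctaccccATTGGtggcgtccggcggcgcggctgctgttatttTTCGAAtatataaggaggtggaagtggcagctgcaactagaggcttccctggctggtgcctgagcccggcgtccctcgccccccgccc
CDC25C start 2 (chr5:138331828-138332127, minus strand): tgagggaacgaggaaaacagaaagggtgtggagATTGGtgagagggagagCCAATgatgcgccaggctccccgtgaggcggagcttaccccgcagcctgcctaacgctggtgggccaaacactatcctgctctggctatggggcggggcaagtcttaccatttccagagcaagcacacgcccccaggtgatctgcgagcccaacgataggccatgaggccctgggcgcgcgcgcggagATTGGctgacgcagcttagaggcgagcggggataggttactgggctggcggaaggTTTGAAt
TOPBP1 (chr3:133661892-133662191, minus strand): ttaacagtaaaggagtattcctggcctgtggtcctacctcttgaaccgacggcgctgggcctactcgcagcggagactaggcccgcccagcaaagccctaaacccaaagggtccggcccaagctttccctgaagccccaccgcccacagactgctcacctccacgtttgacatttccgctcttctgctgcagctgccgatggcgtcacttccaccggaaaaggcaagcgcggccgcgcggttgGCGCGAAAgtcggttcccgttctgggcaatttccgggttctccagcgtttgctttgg
CHEK1 start 3 (chr11:125626106-125626405, plus strand): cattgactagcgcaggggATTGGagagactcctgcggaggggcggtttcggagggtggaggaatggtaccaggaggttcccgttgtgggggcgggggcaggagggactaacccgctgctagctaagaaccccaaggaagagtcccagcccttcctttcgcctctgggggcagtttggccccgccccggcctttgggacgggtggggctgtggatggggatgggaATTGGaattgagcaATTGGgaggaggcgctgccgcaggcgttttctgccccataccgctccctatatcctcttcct
ATR (chr3:142578684-142578983, minus strand): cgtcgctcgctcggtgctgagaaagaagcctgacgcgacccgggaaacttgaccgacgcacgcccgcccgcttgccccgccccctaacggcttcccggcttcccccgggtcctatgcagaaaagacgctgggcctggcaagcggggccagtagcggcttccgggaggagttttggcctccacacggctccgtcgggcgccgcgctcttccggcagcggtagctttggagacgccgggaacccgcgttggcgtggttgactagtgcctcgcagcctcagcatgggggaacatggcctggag

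In the *CDC25A* window, an E2F word lay at bases -44 to -37, where base 0 is the start itself, and CCAAT boxes in reverse orientation lay at -110 to -106 and -58 to -54. The *TOPBP1* window had an E2F word in reverse orientation at -7 to 0 and no other match. *CDC25B* had an E2F word in the window of start 1 (-91 to -84), whereas start 3, printed above, had a CHR word at -38 to -33 and a reverse CCAAT box at -73 to -69, and start 4 had no match. *CDC25C* start 2 had a CHR word at 43 to 48 and 3 CCAAT boxes, and starts 1 and 3 had no match. Start 4 had a CHR word at -30 to -25 and a CCAAT box at -85 to -81. Its window overlaps that of start 2, and both matches are letters already counted there. E2F words were thus found in 3 of the 8 genes with a window, against 5.11% of all 27305 genes with one. CHR words were found in 3 of the 8 genes (*ATM*, *CDC25B*, *CDC25C*) against 19.5% of all genes, and CCAAT boxes in 6 of the 8 genes against 39.7%. Over all 35116 windows the shares were 4.24%, 16.4% and 34.6%. The counts by gene are not like for like, since the 8 genes had 17 windows and the 27305 genes had 35116. A gene with more windows has more chances of a match. The *ATR* window had none of these letters. Those of *CHEK1* and *CHEK2* had CCAAT boxes only, which in the *CHEK1* window printed lay in reverse orientation at -232 to -228, -26 to -22 and -12 to -8. A match is a description of the letters, not a binding site, and gene-level values do not say which start was used.

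In *RRM2*-OE-TPC-1, 6 of the 10 genes rose (*CDC25A*, *PKMYT1*, *TOPBP1*, *WEE1*, *CHEK1* and *ATR*) and 1 fell (*ATM*), at an adjusted p of 0.05 or less (limma on log2(FPKM + 0.1), Benjamini-Hochberg over all 13621 genes, two-sided). *CHEK2*, *CDC25B* and *CDC25C* did not pass. Over all genes tested, 34.9% rose and 32.7% fell at the same threshold, so a call alone is common in this comparison. The 7 genes that passed were also those whose libraries did not overlap between the groups. Of all genes, 37.3% were higher and 35% lower without overlap. When a log2 fold change of at least 1 in size was required as well, 1 gene was left, *CDC25A*, against 4.48% of all genes higher and 6.97% lower. The median log2 fold change was 0.58 over the 10 genes and 0.01 over all genes tested. The scaling of the deposited values holds the median over all genes near 0.

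**Figure D1:**
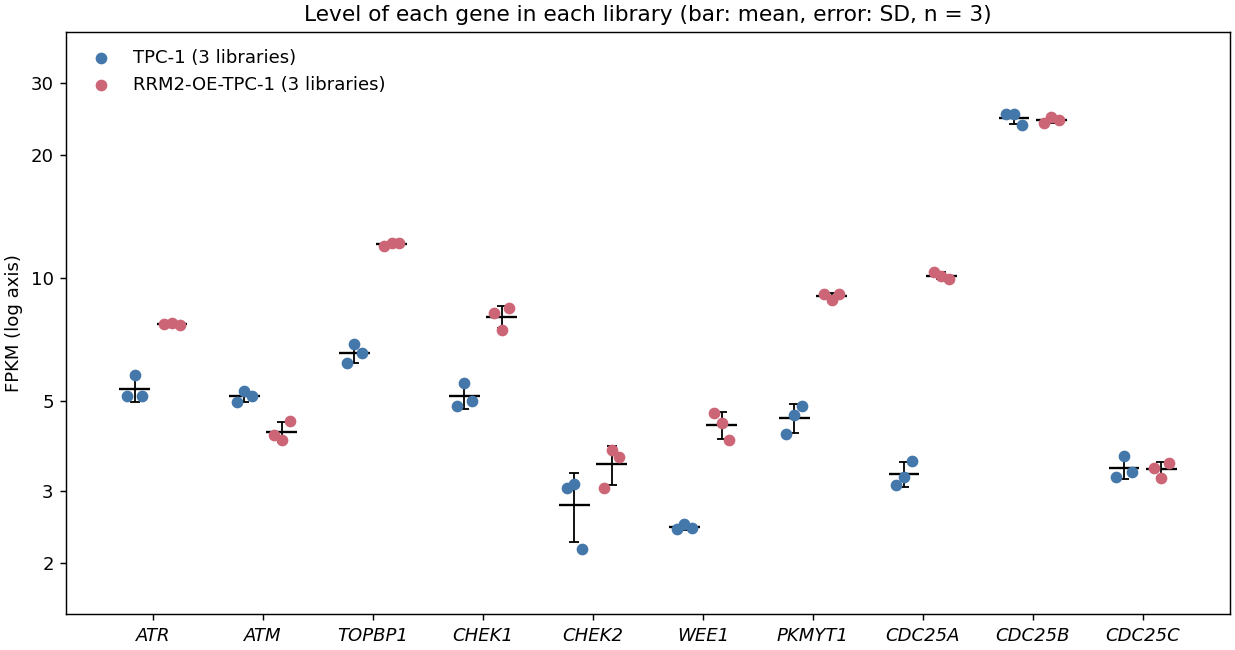
FPKM of the 10 genes in each library on a log axis, blue points for wild strain TPC-1 and red points for *RRM2*-OE-TPC-1, with the mean and SD (n = 3) in black. Red points lie above blue ones without overlap for *ATR*, *TOPBP1*, *CHEK1*, *WEE1*, *PKMYT1* and *CDC25A*, below them for *ATM*, and among them for *CHEK2*, *CDC25B* and *CDC25C*.

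The apical kinases moved in opposite directions. *ATR* (ENSG00000175054, chr3:142449235-142578826, minus strand) was at 5.14, 5.78 and 5.13 FPKM in wild strain TPC-1 and at 7.72, 7.77 and 7.67 FPKM in *RRM2*-OE-TPC-1. All overexpressing libraries were above all wild strain libraries. They lay within a band narrower (coefficient of variation 0.641%) than counting error alone gives (2.56%). The mean went from 5.35 ± 0.373 to 7.72 ± 0.0495 FPKM (SD, n = 3), and the log2 fold change was 0.52 (SE 0.0604, 95% interval 0.38 to 0.66, limma adjusted p = 0.000108). *ATM* (ENSG00000149311, chr11:108222484-108369102, plus strand) was at 4.95, 5.27 and 5.14 FPKM in wild strain TPC-1 and at 4.13, 4.00 and 4.46 FPKM in *RRM2*-OE-TPC-1. Here all overexpressing libraries were below all wild strain libraries. *ATM* fell by 0.28 on the log2 scale (SE 0.0643, 95% interval -0.43 to -0.13, limma adjusted p = 0.00488), from 5.12 ± 0.162 to 4.20 ± 0.237 FPKM. This is a small difference for these data, since 39.9% of genes tested had a smaller one in size. The 2 kinase genes had nearly the same FPKM in wild strain TPC-1, where the ratio of *ATR* to *ATM* was 1.04, 1.10 and 0.997. In *RRM2*-OE-TPC-1 the ratio was 1.87, 1.94 and 1.72, above every wild strain library.

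*TOPBP1* (ENSG00000163781, chr3:133598175-133662380, minus strand), the activator of ATR, had a larger difference than *ATR*. Its levels were 6.18, 6.88 and 6.55 FPKM in wild strain TPC-1 and 11.9, 12.1 and 12.2 FPKM in *RRM2*-OE-TPC-1. The groups were far apart relative to their spread. The overexpressing libraries were nearly equal, closer (coefficient of variation 1.00%) than counting error alone gives (2.67%). The mean rose 1.85-fold, from 6.54 ± 0.351 to 12.1 ± 0.121 FPKM, with a log2 fold change of 0.88 (SE 0.0510, 95% interval 0.76 to 1.00, limma adjusted p = 2.43e-06). The ratio of *TOPBP1* to *ATR* was 1.20, 1.19 and 1.28 in wild strain TPC-1 and 1.55, 1.56 and 1.59 in *RRM2*-OE-TPC-1, without overlap.

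Of the effector kinases, *CHEK1* passed the test and *CHEK2* did not. *CHEK1* (ENSG00000149554, chr11:125625136-125676255, plus strand), the main target of ATR, was at 4.85, 5.51 and 4.99 FPKM in wild strain TPC-1 and at 8.20, 7.46 and 8.44 FPKM in *RRM2*-OE-TPC-1. Every overexpressing library was above every wild strain library. The mean rose 1.57-fold, from 5.12 ± 0.348 to 8.03 ± 0.511 FPKM, and the log2 fold change was 0.64 (SE 0.0707, 95% interval 0.48 to 0.80, limma adjusted p = 8.38e-05). The ratio of *CHEK1* to *ATR* was 0.945, 0.954 and 0.974 in wild strain TPC-1 and 1.06, 0.960 and 1.10 in *RRM2*-OE-TPC-1, and these ranges overlapped.

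*CHEK2* (ENSG00000183765, chr22:28687743-28742422, minus strand), the main target of ATM, was at 3.05, 3.12 and 2.16 FPKM in wild strain TPC-1 and at 3.05, 3.78 and 3.65 FPKM in *RRM2*-OE-TPC-1. The third wild strain library was the lowest, and the first overexpressing library lay among the wild strain ones. The log2 fold change was 0.33 with a 95% interval of -0.01 to 0.67 (SE 0.149, limma adjusted p = 0.0808), so a difference as large as that of *CHEK1* was not excluded by the interval. *CHEK2* had the widest spread of the 10 genes, with a coefficient of variation of 19.2% in wild strain TPC-1 where counting error alone, from 155 to 236 reads per library, gives 6.96%. Without wild strain replicate 3 the log2 fold change was 0.17 (adjusted p = 0.218), and without replicate 1 of *RRM2*-OE-TPC-1 it was 0.42 (adjusted p = 0.0494). The ratio of *CHEK1* to *CHEK2* overlapped between the groups.

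**Figure D2:**
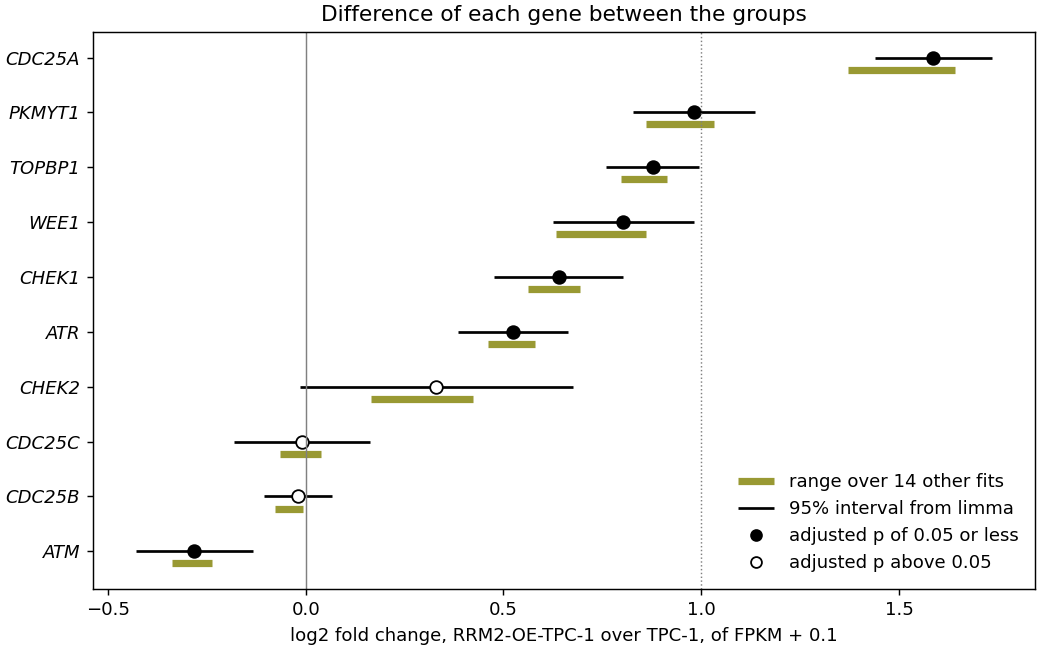
Log2 fold change of each gene (*RRM2*-OE-TPC-1 over wild strain TPC-1, on FPKM + 0.1) with its 95% interval, filled where the adjusted p was 0.05 or less, and in olive the range over 14 other fits; the dotted line marks a log2 fold change of 1. *CDC25A* stands at 1.59, *PKMYT1* at 0.98 just under the line, *CDC25B* and *CDC25C* at -0.02 and -0.01, and *ATM* at -0.28.

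Both kinases that hold CDKs inactive rose. *WEE1* (ENSG00000166483, chr11:9573681-9593457, plus strand), the nuclear kinase, was at 2.43, 2.49 and 2.43 FPKM in wild strain TPC-1 and at 4.67, 4.40 and 4.01 FPKM in *RRM2*-OE-TPC-1. The overexpressing libraries all lay above the wild strain ones. The wild strain values were closer together (coefficient of variation 1.47%) than counting error alone gives (5.18%), so the spreads of the groups are not compared. The log2 fold change was 0.80 (SE 0.0767, 95% interval 0.63 to 0.98, limma adjusted p = 3.60e-05), a rise from 2.45 ± 0.0361 to 4.36 ± 0.330 FPKM. *PKMYT1* (ENSG00000127564, chr16:2968024-2980539, minus strand), the membrane-bound kinase that acts on CDK1, was at 4.14, 4.61 and 4.86 FPKM in wild strain TPC-1 and at 9.14, 8.85 and 9.13 FPKM in *RRM2*-OE-TPC-1. Again no libraries overlapped. The mean rose 1.99-fold, from 4.54 ± 0.365 to 9.04 ± 0.165 FPKM, with a log2 fold change of 0.98 (SE 0.0663, 95% interval 0.83 to 1.13, limma adjusted p = 5.31e-06), just short of the fold threshold. Without wild strain replicate 3 it was 1.03, past that threshold. The ratio of *PKMYT1* to *WEE1* was 1.71, 1.85 and 2.00 in wild strain TPC-1 and 1.96, 2.01 and 2.28 in *RRM2*-OE-TPC-1, so these ranges overlapped.

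The 3 phosphatase genes differed from each other. *CDC25A* (ENSG00000164045, chr3:48157146-48188402, minus strand) was at 3.10, 3.25 and 3.57 FPKM in wild strain TPC-1 and at 10.3, 10.1 and 9.91 FPKM in *RRM2*-OE-TPC-1. The groups were well separated, with 213 to 234 reads per library against 614 to 714. The mean rose 3.06-fold, from 3.31 ± 0.238 to 10.1 ± 0.204 FPKM, and the log2 fold change was 1.59 (SE 0.0638, 95% interval 1.44 to 1.73, limma adjusted p = 4.07e-07). Of all genes tested, 96.4% had a smaller difference in size.

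*CDC25B* (ENSG00000101224, chr20:3786772-3806121, plus strand) was at 25.2, 25.2 and 23.8 FPKM in wild strain TPC-1 and at 24.0, 24.7 and 24.3 FPKM in *RRM2*-OE-TPC-1. The overexpressing libraries lay within the wild strain range. The log2 fold change was -0.02 (SE 0.0371, 95% interval -0.11 to 0.07, limma adjusted p = 0.647). *CDC25C* (ENSG00000158402, chr5:138285265-138338355, minus strand) was at 3.25, 3.65 and 3.35 FPKM in wild strain TPC-1 and at 3.42, 3.24 and 3.52 FPKM in *RRM2*-OE-TPC-1. Its libraries were interleaved. The log2 fold change was -0.01 (SE 0.0743, 95% interval -0.18 to 0.16, limma adjusted p = 0.916), and its sign changed when single libraries were left out. Both intervals lie entirely below that of *CDC25A*. The interval of *CDC25C* is wider, on 165 to 205 reads per library, than that of *CDC25B*, on 1494 to 1828.

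FPKM is scaled to gene length, here the union of all annotated exons: 4314 bases for *CDC25B*, 9239 for *WEE1* and 23972 for *ATM*. That union can be longer than the transcripts present, by an amount that differs between genes. The order below, and the shares and ratios between genes, are therefore of FPKM and only a rough guide to RNA abundance. A difference between the groups in 1 gene, or in a ratio of 2 single genes, does not depend on the length used. Differences in shares and in ratios of summed FPKM do, since the lengths weight the genes in a sum. In wild strain TPC-1 the order of mean FPKM ran from *CDC25B* (24.7) and *TOPBP1* (6.54) through *ATR*, *ATM*, *CHEK1* and *PKMYT1* (5.35 to 4.54) to *CDC25C*, *CDC25A*, *CHEK2* and *WEE1* (3.42 to 2.45). Within each of the last 2 runs of 4 genes, neighbours had overlapping ranges. In *RRM2*-OE-TPC-1 the order was *CDC25B*, *TOPBP1*, *CDC25A*, *PKMYT1*, *CHEK1*, *ATR*, *WEE1*, *ATM*, *CHEK2* and *CDC25C*. There the ranges of *CHEK1* and *ATR*, of *WEE1* and *ATM*, and of *CHEK2* and *CDC25C* overlapped. *CDC25A* went from rank 8 to rank 3 of the 10 genes, and *CDC25B* was first in both groups.

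The make-up of the summed phosphatase FPKM differed as well. *CDC25A* made up 9.84%, 10.1% and 11.6% of the summed FPKM of the 3 phosphatase genes in wild strain TPC-1 and 27.4%, 26.6% and 26.3% in *RRM2*-OE-TPC-1. *CDC25B* was the larger part in both, at 78.6% ± 1.20 and 64.3% ± 0.695 (SD, n = 3). *CDC25C* was at 10.9% ± 0.540 and 8.96% ± 0.423, while its own level did not pass the test, since shares of a whole are tied to each other. The summed FPKM was 31.4 ± 0.701 in wild strain TPC-1, against 37.8 ± 0.219 in *RRM2*-OE-TPC-1. The opposing kinases *WEE1* and *PKMYT1* together were at 6.99 ± 0.375 and 13.4 ± 0.359 FPKM. The ratio of summed phosphatase to summed kinase FPKM was 4.80, 4.52 and 4.20 in wild strain TPC-1 and 2.73, 2.88 and 2.87 in *RRM2*-OE-TPC-1, lower in all 3 overexpressing libraries. The size of this difference depends on the gene lengths used, and its direction can too. For single pairs the direction depended on the phosphatase. *CDC25A* over *WEE1* was 1.35 ± 0.102 in wild strain TPC-1, against 2.33 ± 0.132 in *RRM2*-OE-TPC-1, whereas *CDC25B* over *WEE1* was 10.1 ± 0.301 and 5.61 ± 0.465, and *CDC25C* over *PKMYT1* 0.755 ± 0.0580 and 0.375 ± 0.00983. *CDC25A* over *CHEK1* was 0.648 ± 0.0627 and 1.26 ± 0.0917. None of these 4 ratios overlapped between the groups. The ratios were not tested.

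**Figure D3:**
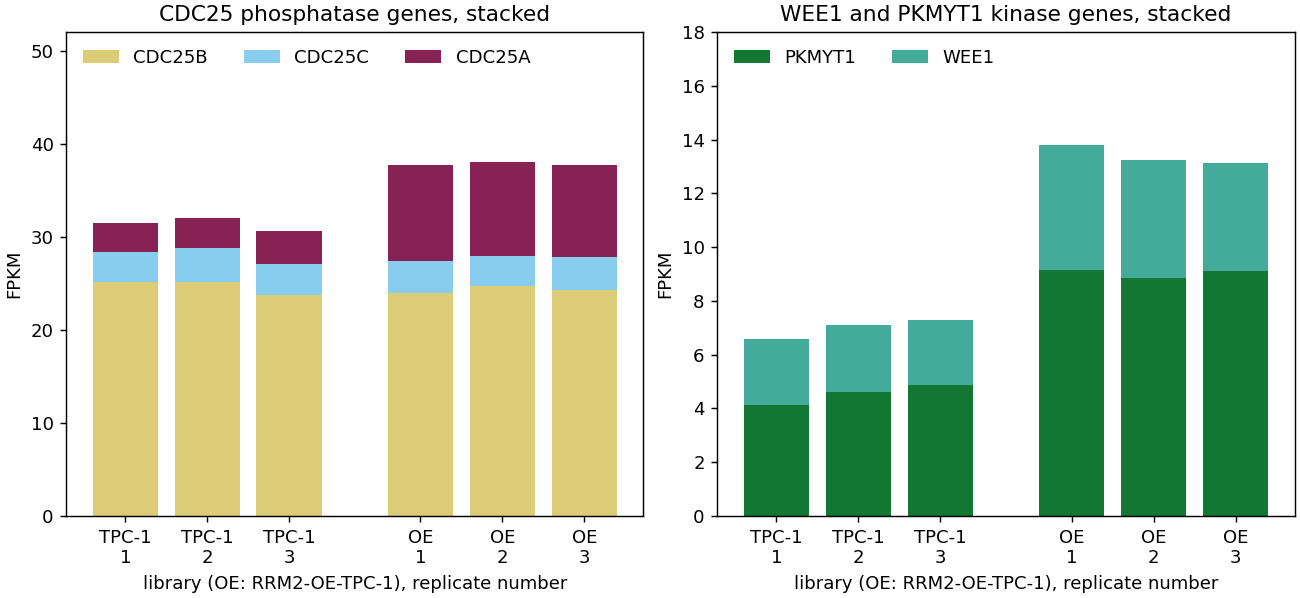
Stacked FPKM per library, with the 3 *CDC25* phosphatase genes on the left and the opposing kinase genes *PKMYT1* and *WEE1* on the right, both axes from 0. The *CDC25A* segment is larger in all 3 *RRM2*-OE-TPC-1 libraries (OE) while the *CDC25B* segment lies between 23.8 and 25.2 FPKM in all 6, and the kinase bars have means of 6.99 and 13.4 FPKM.

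Reads of some of these genes cannot be fully told from those of neighbours. The exons of *PKMYT1* share 1233 bases, 24.5% of its exonic length, with *PAQR4* on the opposite strand, which was at 2.00 FPKM in wild strain TPC-1 and 3.77 FPKM in *RRM2*-OE-TPC-1. They share 360 bases with *KREMEN2* (0.632 and 1.19 FPKM). *CDC25C* shares 293 bases (8.78%) with *FAM53C*, which was at 11.6 and 11.2 FPKM, above *CDC25C* itself. *CHEK2* shares 301 bases (6.70%) with *HSCB* (6.74 and 6.38 FPKM). *CHEK1* shares 80 bases with *STT3A* on the same strand (22.6 and 27.2 FPKM), and *ATM* shares 143 with *NPAT* (2.79 and 3.48 FPKM). *ATR* shares 2048 bases (16.4%) with AC109992.1 on the opposite strand, which was at 0. *RRM2* itself shares 1077 bases (20.2%) with AC007240.1 on the same strand (0.616 and 0.316 FPKM), which strand cannot separate. The library kit keeps strand, but whether strand was used in counting is not given in the sources used here. The levels of *PKMYT1*, *ATR*, *CDC25C* and *CHEK2* are therefore uncertain by an amount that was not tested. The 6 annotated *CHEK2* pseudogenes had 0 reads, and 5 *WEE1* pseudogenes had at most 5 reads in a library.

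Around these genes, 3 lists of other pathway members were examined, holding 57 genes, of which 55 were tested, 36 rose, 9 fell and 10 did not pass, counts to be read beside the 34.9% and 32.7% of all genes. Of 22 tested checkpoint sensors and mediators (*RAD9B* was not tested), 12 rose and 4 fell, with a median log2 fold change of 0.37. *CLSPN*, which encodes claspin, the adaptor that brings CHK1 to ATR, was at 2.03 ± 0.0472 FPKM in wild strain TPC-1 and 9.14 ± 0.245 FPKM in *RRM2*-OE-TPC-1, a log2 fold change of 2.12 (limma adjusted p = 6.79e-08). *ATRIP*, the partner of ATR, and *RPA2*, a subunit of the protein that coats single-stranded DNA, rose by 1.00 and 0.97. *ETAA1*, the other activator of ATR besides TOPBP1, fell by 0.38 (adjusted p = 0.0118), from 3.59 to 2.76 FPKM. *RAD17*, which loads the 9-1-1 clamp, fell by 0.45, and *RHNO1*, a partner of that clamp, fell by 0.20. Of the clamp subunits, *HUS1* rose by 0.60 (limma adjusted p = 0.000665). *RAD9A* (0.21, adjusted p = 0.0984) and *RAD1* (0.02, adjusted p = 0.826) did not pass. The 2 activators of ATR thus had log2 fold changes of opposite sign, 0.88 for *TOPBP1* and -0.38 for *ETAA1*.

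Of 20 CDK targets and regulators of mitotic entry, 15 rose and 4 fell, with a median of 0.68. The cyclin genes *CCNE2*, *CCNE1* and *CCNA2*, whose partner CDK2 is a target of CDC25A, rose by 1.87, 1.45 and 1.21. *CCNH* and *MNAT1*, subunits of the CDK-activating kinase, fell by 0.30 and 0.26, whereas *CDK7*, its kinase subunit, rose by 0.51 (limma adjusted p = 0.000999). *MARK3*, a kinase of CDC25C, fell by 0.24. The call of *MNAT1* was lost with no low value filter (adjusted p = 0.0654) and without wild strain replicate 1 (0.0725), wild strain replicate 2 (0.0751) or replicate 3 of *RRM2*-OE-TPC-1 (0.0723). Of 13 tested genes for degradation of CDC25 and for 14-3-3 proteins that bind it (*SFN* was not tested), 9 rose and 1 fell, with a median of 0.38. The 14-3-3 genes *YWHAH*, *YWHAQ* and *YWHAZ* rose by 1.07, 0.62 and 0.60. *USP28*, a deubiquitinase, fell by 0.36, while *NEK11*, a kinase that marks CDC25A for destruction, and *FBXW11*, a ubiquitin ligase subunit for CDC25A, had log2 fold changes of -0.16 (adjusted p = 0.272) and 0.03 (adjusted p = 0.518).

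Among relatives of ATM and ATR (*WEE2*, a relative of WEE1, was not tested), *PRKDC*, *MTOR* and *SMG1* rose by 0.65, 0.41 and 0.11 and *TRRAP* had 0.05 (adjusted p = 0.422), so *ATM* was the gene with a negative log2 fold change among these 6 related genes, except that *TRRAP* was at -0.0069 when values were scaled to library totals. The call of *SMG1* was lost in 7 of 14 alternatives, among them that scaling (adjusted p = 0.281) and 5 of the 6 fits with a library left out (adjusted p = 0.0613 to 0.0738).

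Most of the 10 genes are themselves expressed in particular phases of the cell cycle, so they were set beside genes of S phase and G2/M, with the 10 genes taken out and with some genes shared with the lists above. With *RRM2*, the gene carried by the lentivirus, left out, all 41 tested S phase genes rose, with a median log2 fold change of 0.91 and quartiles of 0.62 and 1.32. *CLSPN* (2.12) and *CCNE2* (1.87) had the largest values and *USP1* (0.19), *POLR1B* (0.21) and *CASP8AP2* (0.33) the smallest. Of 53 G2/M genes, 47 rose and 3 fell, with a median of 0.70 and quartiles of 0.43 and 0.95. *TUBB4B* (2.15), *ANLN* (1.79) and *CDC20* (1.35) were highest, and *TMPO*, *GAS2L3* and *CTCF* fell by 0.47, 0.27 and 0.24. Against this, *CDC25A* had a larger value than 36 of the 41 S phase genes and 51 of the 53 G2/M genes. *PKMYT1*, *TOPBP1* and *WEE1* lay between the quartiles of the S phase genes, above 23, 20 and 18 of the 41. *CHEK1* was above 12 of them and *ATR* above 6. *CDC25B* and *CDC25C* were below all 41 S phase genes and above 4 of the 53 G2/M genes, and *ATM* was above none and 1. A larger share of cells in a phase and more RNA per cell cannot be told apart in these bulk libraries. By flow cytometry, the paper reports a smaller G0/G1 share and a larger S phase share of *RRM2*-OE-TPC-1 cells. The part of those shares in the values here was not tested.

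**Figure D4:**
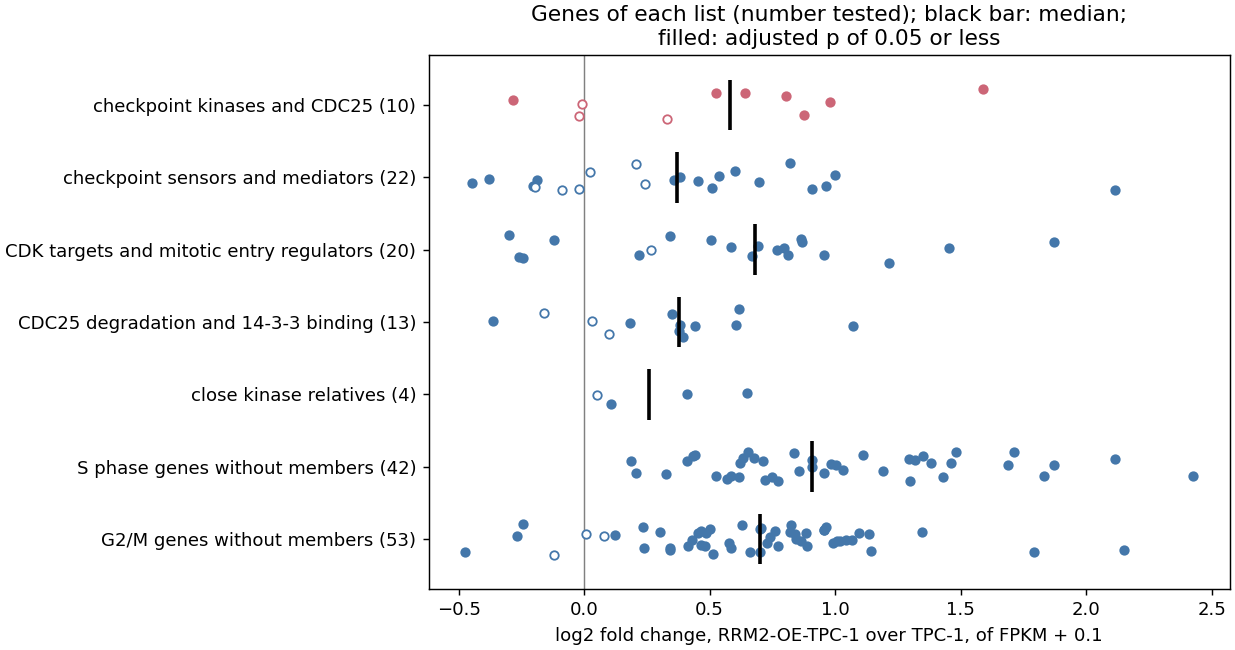
Log2 fold change of each tested gene (*RRM2*-OE-TPC-1 over wild strain TPC-1, on FPKM + 0.1) by list, with the number tested in parentheses, the 10 genes in red at the top, filled points for an adjusted p of 0.05 or less and a black bar at the median. Medians run from 0.26 for the kinase relatives to 0.91 for the S phase genes, which include *RRM2* here and all lie above 0, and the 10 genes have a median of 0.58.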

How the data were processed

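RNA sequencing of 3 libraries of wild strain TPC-1 and 3 of *RRM2*-OE-TPC-1 was used. The authors aligned paired reads with HISAT2 2.0.5 and counted them per gene with featureCounts 1.5.0 (versions and build GRCh38.p14 from the submitters' processing notes). They deposited FPKM, which the methods describe as divided by gene length and sequencing depth. They used DESeq2 1.20.0 for their own comparison, which was not used here. The methods describe poly(A) selection, whereas the labels describe ribosomal RNA removal and RNase R digestion. All 58735 gene positions were those of GENCODE 29. FPKM times gene length gave whole reads for 100% of values (within 0.05), which supplied reads and the divisor of each library. That divisor was not the reads on genes. It was 1.593e+07 against 15979186 reads in replicate 3 of *RRM2*-OE-TPC-1, and 1.594e+07 against 15136887 in wild strain replicate 3. It moved instead with median-of-ratios size factors, which hold the typical gene equal between libraries.

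Genes that reached FPKM 0.5 and 10 recovered reads in 3 or more libraries were tested with limma 3.58.1 (R 4.3.3, lmFit and eBayes with trend) on log2(FPKM + 0.1). This pseudocount understates the change of low genes. Adjustment was by Benjamini-Hochberg over 13621 genes, at 0.05. Tables and plots used Python 3.11.15, pandas 2.3.3, numpy 2.4.6 and matplotlib 3.10.9. In data simulated for this comparison (13590 genes tested), 97.6% of 84 genes changed by 1 on the log2 scale and 100% of 113 changed by 2 were called, with 8 false calls. The simulation used the same dispersion for all genes and changed far fewer genes than were called in the data. Recovery of differences smaller than 1, which most of the 10 genes had, was not tested.

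The 10 genes and all lists were chosen with earlier results of these data known. A few genes on those lists are not reported here. Named were *RRM2*, the 10 genes, genes overlapping them, and the 3 highest and 3 lowest log2 fold changes of each pathway list. *CDK7*, *HUS1*, *RAD9A* and *RAD1*, also from those lists, were added as partners of named genes and not followed through the alternatives. *KRT18* and the other markers come from lists of cell type markers. Alternatives were other filters, pseudocounts and scalings, voom on recovered reads, the replicate number as a block and each library left out in turn.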

Additional observations from a re-analysis of the deposited data

How the results depend on the processing

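Over 14 alternatives (2 filters, 2 pseudocounts, 2 scalings, voom, the replicate block and 6 libraries left out), 136 of 140 values of the 10 genes kept their direction and their side of the threshold. The exceptions were *CHEK2* and *CDC25C*. The 2 filters and the replicate block leave a log2 fold change as it was, so they could alter the adjusted p alone. Median-of-ratios scaling nearly repeats the scaling of the deposited values (*CDC25A* 1.588 against 1.587). The count therefore overstates how far direction was tried. *CHEK2* passed under voom on recovered reads (0.34, adjusted p = 0.0120) and without replicate 1 of *RRM2*-OE-TPC-1, and ranged from 0.17 to 0.42 with single libraries left out. *CDC25C* ranged from -0.044 to 0.038 with single libraries left out, positive without wild strain replicate 2 (0.038) or without replicate 2 of *RRM2*-OE-TPC-1 (0.023), and never passed. Leaving out single libraries gave 1 to 2 of the 10 genes past both thresholds, the second being *PKMYT1* without wild strain replicate 3. Over all genes, 1560 were past both thresholds, and 716 with a pseudocount of 1, which shrinks differences of low genes. Of 448 values of 32 other named genes, 435 kept direction and call, 11 of *MNAT1* and *SMG1* lost the call, and *FBXW11* (-0.024) and *TRRAP* (-0.0069) turned negative when scaled to library totals. The cause was not tested.

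Same-numbered libraries did not deviate together (correlations -0.0105, -0.00602 and -0.0550), and differently numbered ones had -0.0481 to 0.0614. No sign of pairing by number was seen, which cannot show whether libraries were prepared together. With the replicate block 6 of the 10 genes rose and 1 fell, as without it, 4616 genes rose over all genes against 4758, and *SMG1* lost its call (adjusted p = 0.0694). Scaling to library totals moved the median of all genes to -0.05. *CDC25C* rested on 165 to 205 reads per library, a counting error of 7.29% and 7.47% in the 2 groups. *CHEK2*, on 155 to 291, varied between libraries by more than its counting error.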
